A study of Arabidopsis thaliana with 4 samples.

Results

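The array tiles described here had log ratios well under the median in both replicates of an H4K20me1 chromatin immunoprecipitation on Arabidopsis thaliana seedlings of the Col-0 ecotype. They number 871 of 21743 tiles with a value (4.01%) and are called low tiles below. They were chosen by their measured log ratios, each replicate first being centred on its median over all tiles: the mean of the 2 replicates had to be at most -0.75, and each replicate had to lie below -0.4. Because these values chose the tiles, the levels below describe them and were not tested.

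The seedlings were 10 days old, had grown in liquid medium at 22 °C with 16 h of light a day, and received no treatment. Chromatin DNA recovered by an H4K20me1 antibody (IP) was co-hybridised on 2-colour arrays with chromatin DNA that had not been selected (INPUT). The design has 1 group of 2 replicates, named I and II, on 4 arrays, since each replicate was hybridised with both dye orientations. The arrays of a dye swap held identical values for all 21743 tiles, so each replicate gives 1 value per tile and n = 2 throughout. Identical columns do not show whether a value combines both dye orientations or comes from 1 array. The labels do not say whether the replicates were separate cultures.

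Histone H4 carries a lysine in its tail that can be methylated stepwise, and H4K20me1 is the form with a single methyl group. In animal cells the mark is placed by SET8 enzymes and is linked to the cell cycle and to chromatin compaction. In Arabidopsis nuclei it has been described at the condensed chromocentres, the blocks of heterochromatin rich in repeats and transposable elements.

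Neither the base of the log ratio nor the channel in its numerator is stated. The ratio is read as likely IP over INPUT only because the upper tail was the longer: the top 1% of tiles began 1.54 (replicate I) and 1.35 (replicate II) above the median, and the bottom 1% began at -1.16 and -1.12. With the sign turned, the low tiles would be the tiles with most of the mark. No array of total histone H4 was used here, so less of the mark and fewer nucleosomes at a tile cannot be told apart. The name of a tile gives its set, plate and well (TB98C12 is set TB, plate 98, row C, column 12). Genes, sequences and positions in the genome were not used for any tile here, and "next" always means next in the order of these names.

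The low tiles had a median of -0.91 (replicate I) and -0.90 (replicate II), where all tiles have 0 by construction. Values ran from -1.94 to -0.40 in replicate I and from -1.78 to -0.42 in replicate II, and the median of the means was -0.88. Before centring, the low tiles lay between -3.36 and -1.82 in replicate I and between -2.93 and -1.57 in replicate II, with all 871 tiles under 0. Most tiles of the array were under 0 as well, the medians being -1.42 and -1.15. The low tiles are therefore the bottom of a broad distribution, and no gap set them apart from the other tiles.

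**Figure D1:**
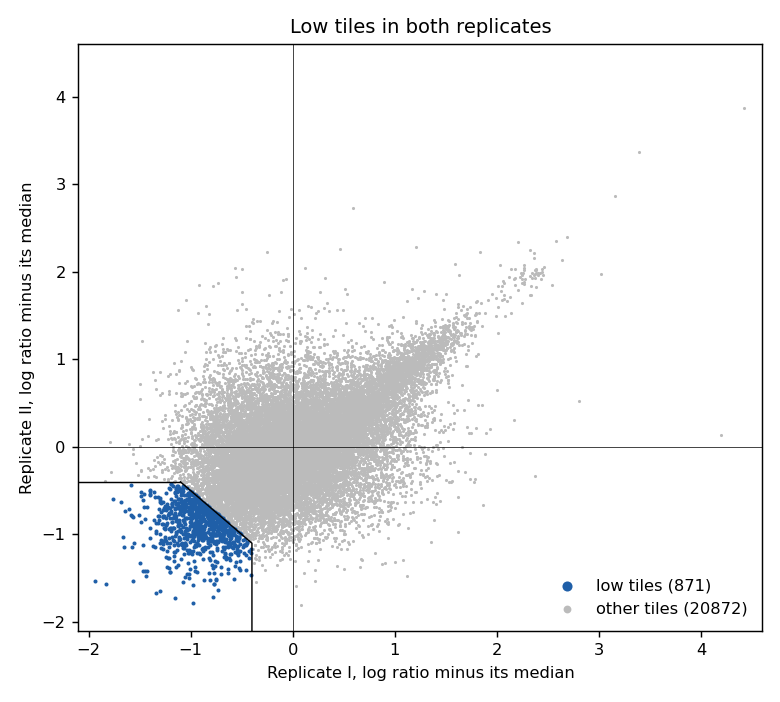
Log ratio minus the median in replicate I (x axis) and replicate II (y axis), 1 point per tile, with the 871 low tiles in blue and the other tiles in grey; black lines are the limits of the rule. The low tiles form the lower left corner of 1 continuous cloud, while the upper right arm reaches beyond 2.

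The 2 replicates took part about equally. Replicate I was the lower of the pair in 446 low tiles and replicate II in 425. Both replicates were below -0.5 in 832 low tiles (95.5%), both were below -0.75 in 426 (48.9%), and both were below -1 in 91 (10.4%). On the whole array 91 tiles (0.419%) were below -1 in both replicates, and all of them are low tiles by the rule. In 445 low tiles 1 replicate lay above -0.75 and the lower replicate brought the mean under the limit. The difference between replicates had a median size of 0.26 in low tiles and 0.33 over all tiles, and it exceeded 0.5 in 166 low tiles (19.1%). The limit on each replicate left out some tiles whose replicates differed widely, and its effect on the median difference was not tested.

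The 8 lowest means belonged to 4 plates of set TA, 3 of set TB and 1 of set TC. Tile TA73H09 had -1.94 in replicate I and -1.53 in replicate II (mean -1.73 ± 0.291, SD, n = 2). TB94F09 had -1.83 and -1.57 (mean -1.70 ± 0.180). TC02H05 had -1.56 and -1.54 (mean -1.55 ± 0.0179). These lie far below the usual low tile, and in each of them both replicates were under -1.5. TB95C06 had -1.34 and -1.67 (mean -1.51 ± 0.237), and TA83A06 had -1.30 and -1.65 (mean -1.47 ± 0.246). TA71G07 had -1.44 and -1.47 (mean -1.46 ± 0.0273). In TB95C06 and TA83A06 replicate II was the lower, and in TA71G07 the replicates were nearly equal. TB77H03 had -1.47 and -1.42 (mean -1.44 ± 0.0340), and TA15H02 had -1.15 and -1.73 (mean -1.44 ± 0.408). Of these 8 tiles TA15H02 had the widest spread between replicates, although both of its values were below -1.

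Just inside the limit on the mean stood TB88G05 (-0.68 in replicate I and -0.82 in replicate II), TA78D04 (-0.51 and -0.99) and TB84A12 (-0.93 and -0.57). Just outside stood TB66B02 (-0.16 and -1.34), TB45C01 (-0.73 and -0.77) and TA25C12 (-0.46 and -1.04). The means of these 6 tiles differ by far less than their replicates do. Another 44 of the 915 tiles with a mean of at most -0.75 were left out because 1 replicate was not below -0.4. The lowest of them, TA68A02, had -1.84 in replicate I and -0.39 in replicate II.

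How far 1 replicate gave low tiles that were low in the other could be read in the replicate that did not choose them. Of 1812 tiles at most -0.75 in replicate I alone, the median in replicate II was -0.39, with quartiles of -0.73 and 0.00. In replicate II 900 of these tiles (49.7%) lay below -0.4, against 22.7% of all tiles. Of 1548 tiles at most -0.75 in replicate II alone, the median in replicate I was -0.49, with quartiles of -0.78 and -0.11. In replicate I 877 of these (56.7%) lay below -0.4, against 24.9% of all tiles. The unused replicate was thus low as well, at less than the depth seen in the replicate that chose (medians of -0.91 (replicate I) and -0.90 (replicate II)). Low tiles made up 655 (36.1%) of the tiles chosen on replicate I and 642 (41.5%) of those chosen on replicate II.

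The same reading was made at the upper end. Of 3009 tiles at least 0.75 in replicate I alone, 70.0% lay above 0.4 in replicate II, against 23.2% of all tiles, and of 2062 chosen on replicate II alone, 72.6% lay above 0.4 in replicate I, against 28.2% of all tiles. Many of these stood in 3 stretches of plates with high medians, which are TC17 to TC30 in set TC and, in set TA, TA21 to TA30 and TA35 to TA51. Outside them the shares were 43.8% of 1196 tiles, against 15.7% of all tiles there, and 37.9% of 823 tiles, against 19.2% of all tiles there. At the lower end 1795 of the 1812 tiles chosen on replicate I and 1508 of the 1548 chosen on replicate II lay outside the stretches. The shares of all tiles given for the lower end include the stretches, so they are not the background of the shares outside them. The differences between the lower and the upper end were not tested.

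Low tiles occurred in all 5 sets of tiles but not evenly. Set TB held 529 of the 871 (60.7%), which is 5.51% of its 9598 tiles (95% exact binomial interval 5.06% to 5.99%). Set TA held 256 (2.74% of 9328 tiles, interval 2.42% to 3.10%) and set TC held 81 (3.37% of 2405 tiles, interval 2.68% to 4.17%). Set PD had 4 low tiles of 316 and TD had 1 of 96. Intervals cover counting only and treat tiles as independent, which neighbours on an array are not. In single replicates, tiles of at most -0.75 were 11.2% (replicate I) and 9.41% (replicate II) of TB. They were 5.76% and 5.35% of TA and 7.90% and 5.78% of TC. The order of TB over TA was the same in each replicate, but the rule used these same values, so this is a description.

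Within sets the share of low tiles differed between groups of plates. In TC all 81 were in TC00 to TC13, where they made up 6.32% of 1282 tiles. In TC17 to TC30, 0 of 1123 tiles were low. By counting alone, a count of 0 allows a share of up to 0.267% (3 counts of the total) or, by the exact binomial interval, 0.328%. TC17 to TC30 is a stretch of plates with high medians on these same values, so few low tiles could be found there. In TC17 to TC30 only 1 tile was at most -0.75 in replicate I and 1 in replicate II. In TA the first plates, TA01 to TA20, held 95 low tiles (4.97% of 1911), and the later plates, TA52 to TA99, held 142 (3.08% of 4603). Set TB was lowest in low tiles at TB20 to TB39, with 62 (3.23% of 1920), and highest at TB80 to TB99, with 153 (7.98% of 1918). In TB80 to TB99 14.6% of tiles were at most -0.75 in replicate I and 10.8% in replicate II, against 7.45% and 6.82% in TB20 to TB39.

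**Figure D2:**
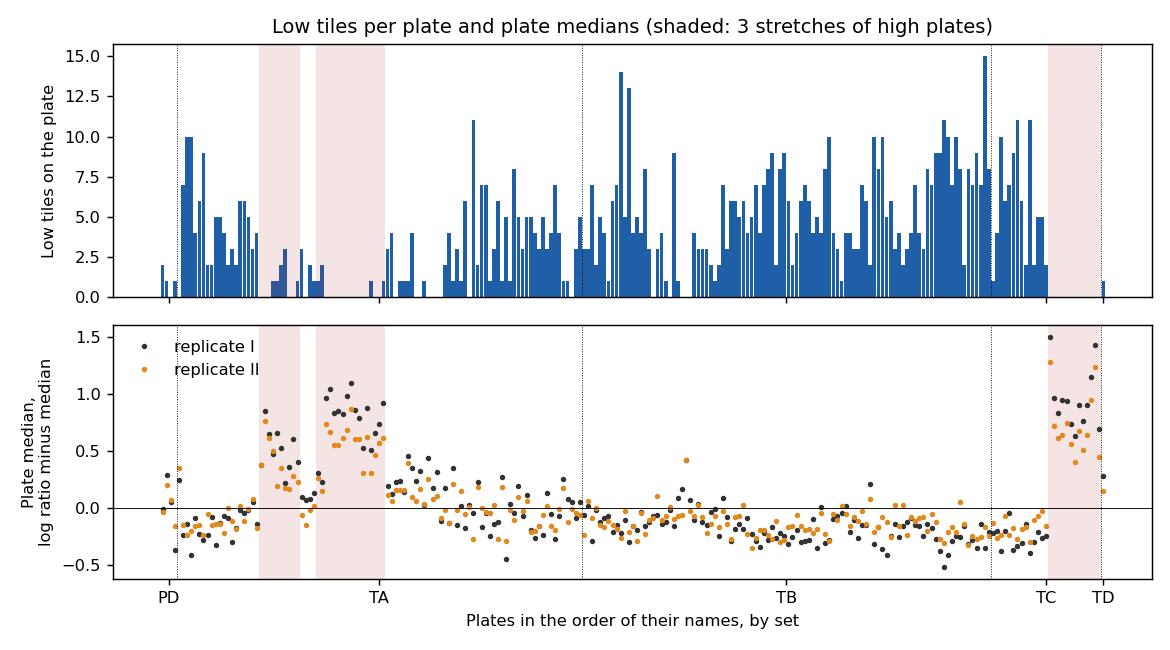
Number of low tiles on each of 231 plates (upper panel) and the plate median of the centred log ratio in replicates I and II (lower panel), with plates in the order of their names and the 3 stretches of high plates shaded. Bars are absent or short in the shaded stretches, where plate medians are highest, and reach 15 on a plate of set TB.

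Of the 231 plates, 183 had at least 1 low tile and 48 had none, with a median of 3 per plate. The variance of the count per plate was 2.87 times its mean over all plates and 1.87 times its mean over the 100 plates of TB. Plates of the 3 stretches made up 31 of the 48 without a low tile, out of 40 such plates in all. Of the 191 plates outside the stretches 17 had none. TB98 had the most low tiles, 15, followed by TB09 with 14 and TB11 with 13. TA73, TB88, TC06 and TC09 had 11 each. The 15 plates with at least 10 low tiles held 166 of them (19.1%), so that no small number of plates accounts for the whole.

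Counts of low tiles went with the level of the plate. When plates were ordered by their median and divided into 4 groups, low tiles made up 7.46% of tiles on the 58 plates with the lowest medians (-0.38 to -0.18), then 4.76%, 3.09% and 0.588% in the groups with higher medians. Across plates the count of low tiles and the plate median correlated at -0.65 (Pearson) and -0.78 (Spearman, 231 plates), and within TB at -0.60 and -0.64 (100 plates). Both measures come from the same tiles, which makes this a description. With the median of each plate removed in each replicate, 567 tiles passed the rule, and 392 of them were low tiles (45.0% of the low tiles and 69.1% of the 567). The median low tile lay 0.73 under its own plate (-0.73 on the log-ratio scale).

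The spread over sets moved with the level of plates. With plate medians removed, tiles that passed the rule made up 2.28% of TB and 3.23% of TA, so the order of the 2 sets turned, and TB held 38.6% of them in place of 60.7%. In the stretches TA21 to TA30 and TA35 to TA51, 111 tiles passed in place of 13. They made up 5.53% of TA21 to TA30 and 4.02% of TA35 to TA51. Outside the 3 stretches 2.42% of tiles passed, so the order of these TA stretches and the rest turned as well. In TC17 to TC30, 15 tiles (1.34%) passed. Over the 3 stretches 113 tiles passed only in this way. Of these, 9 had a mean above 0, and their median was -0.31, so most were below the median of the array without reaching -0.75. The cause of the differences in level between plates was not tested.

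The 2 high stretches of set TA held 13 low tiles, 8 of 886 in TA21 to TA30 (0.903%) and 5 of 1544 in TA35 to TA51 (0.324%). Both shares are under the 3.52% of the other TA plates (243 of 6898). The stretches were picked earlier for high plate medians on these same values, so few low tiles had to be found there. Replicate II had more tiles of at most -0.75 in TA21 to TA30 than replicate I, 28 against 8, while TA35 to TA51 had 11 and 8. Of the 13 low tiles, the 3 lowest were TA26D05, at -1.10 (replicate I) and -1.06 (replicate II), TA27F06, with -0.96 and -1.08, and TA27F07, with -1.12 and -0.91. They lay in adjoining plates, and TA27F06 and TA27F07 were next to each other.

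Of 21 tiles that were next to a low tile inside these stretches without being low, 18 had a mean below 0, against 12.9% of the 2417 tiles there that were not low. TA26D05 was followed by the low tile TA26D06 (-0.69 in replicate I and -1.08 in replicate II) and preceded by a well at 0.08 and 0.00. TA48A01, the low tile after the longest interval inside TA35 to TA51, had -0.83 and -0.97. Before it came a well at -0.50 and -0.36, and after it a well at -0.49 and -0.40. TA51G05, at -0.82 and -0.73 on the last plate of that stretch, was followed by a well at 0.57 and 0.16. Between TA36D10 and TA48A01 no tile was low over 1018 tiles.

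**Figure D3:**
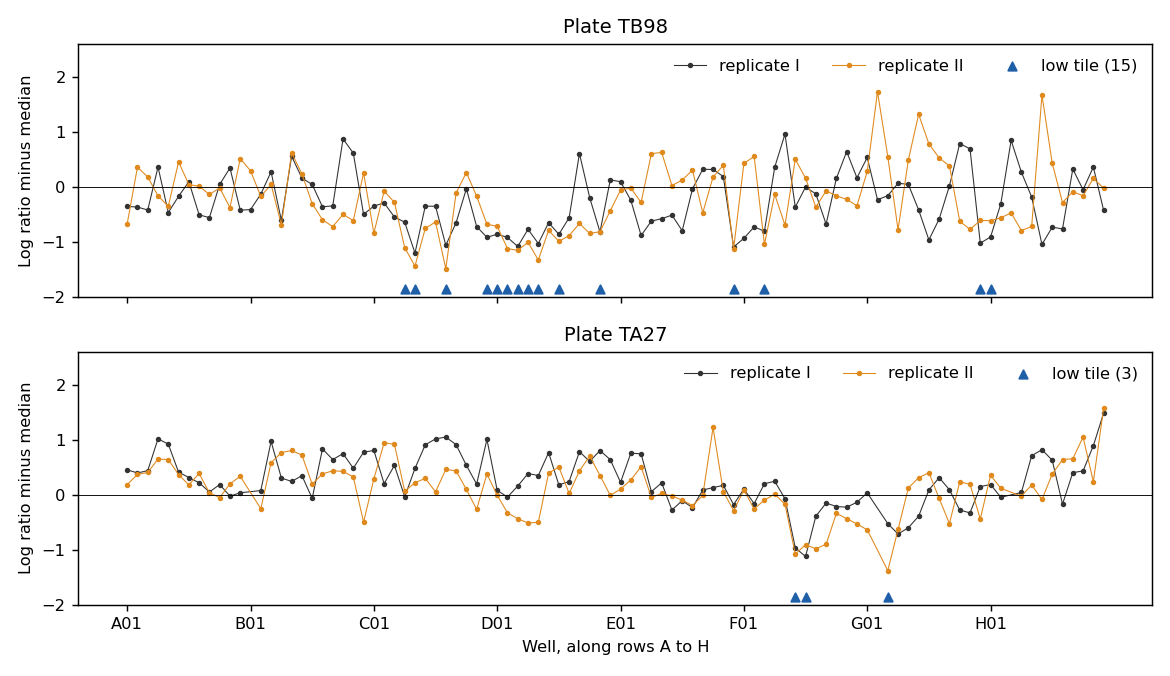
Centred log ratio of every tile with a value on plate TB98 (upper panel) and plate TA27 (lower panel) in replicates I and II, by well along rows A to H, with triangles under the low tiles. TB98 holds 15 low tiles, 11 of them from C04 to D11, and TA27 holds 3 among wells that mostly lie above 0.

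With distance from the 2 stretches of set TA, the share of low tiles was lower in the 3 nearer bins than in the 3 farther ones, without a step in 1 direction throughout. Bins up to 20 plates away pooled plates of TA01 to TA20 (4.97% low) with plates of TA52 to TA99 (3.08% low). Beyond 20 plates all were of TA52 to TA99. The 2 sides were not counted separately by distance, so distance and side cannot be told apart here. The share is given for the pooled bins. This share was 0.535% inside the stretches and 2.62% (20 of 762 tiles, interval 1.61% to 4.02%) in the 8 plates that lie 1 or 2 plates away. At 3 to 5 plates it was 3.31% and at 6 to 10 plates 2.30%. Farther out it was 3.76% at 11 to 20 plates, 4.48% at 21 to 30 plates and 3.88% at 31 to 48 plates. The interval of the nearest plates overlaps those of all bins outside the stretches. The median of tiles was higher in the nearer bins, where the share of low tiles was lower, with values of 0.04, 0.08 and 0.03 in the bins up to 10 plates away and of -0.05, -0.07 and -0.03 in the farther bins. Low tiles of TA outside the stretches lay at a median of 19 plates from the nearest stretch, against 17 for all TA tiles outside them. The 4 plates between the stretches, TA31 to TA34, held 6 low tiles of 384 (1.56%, interval 0.576% to 3.37%).

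Most low tiles stood alone. Of the 871, 531 (61.0%) had no low tile in the next well on either side, and 340 (39.0%, 95% exact binomial interval 35.8% to 42.4%) formed 149 runs of 2 or more wells in a row. Of these runs 118 had 2 wells, 23 had 3, 6 had 4, 1 had 5 and 1 had 6. Low tiles in runs had a median mean of -0.89 and single ones had -0.87, and those in runs of 3 or more had -0.92. The limit of the rule holds all these medians close together. The well after a low tile was itself low in 191 of 871 cases (21.9%), where 4.01% of all tiles are low. Farther from a low tile the share stayed above 4.01%, with 5.31% at 12 wells after, 7.03% at 24 and 6.24% at 96.

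The rule with its sign turned (a mean of at least 0.75 and both replicates above 0.4) gave 1795 high tiles (8.26%), of which a larger share stood together. In runs of at least 2 wells were 1417 of them (78.9%), and the longest run had 53 wells. Of the 371 high tiles outside the 3 stretches, 178 (47.98%) stood in runs, the longest of 19 wells. The share for low tiles was thus 39.0%, with a longest run of 6 wells, against 47.98% for the scattered high tiles. Outside the 3 stretches high tiles were the rarer kind, at 2.04% of tiles against 4.72% for low tiles. The well after was of the same kind for 33.5% of these scattered high tiles and for 21.9% of all low tiles. These differences were not tested. High tiles rarely adjoined low ones: 11 low tiles (1.26%) had a high tile next to them, against 5.86% of the tiles that were neither low nor high, and in TB alone the shares were 1.51% and 2.22%.

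**Figure D4:**
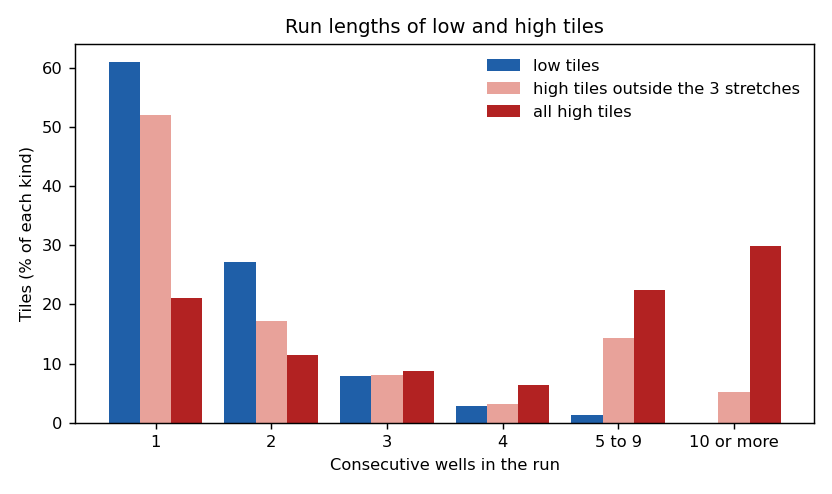
Share of low tiles (blue), of high tiles outside the 3 stretches (pale red) and of all high tiles (red) by the number of consecutive wells in their run. Low tiles fall mostly in the first bars, with 61.0% single and 27.1% in runs of 2, and none is in a run of 10 or more.

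The longest run, TB98C12 to TB98D05, crossed from row C into row D with 6 wells. Replicate I averaged -0.93 over it and replicate II -0.997 (-0.96 ± 0.0502, SD, n = 2). Single wells ran from -0.78 to -1.18 in the mean, the lowest being TB98D05 (replicate I -1.03, replicate II -1.32). The wells on either side were below the median too, at -0.72 and -0.16 before the run and at -0.65 and -0.79 after it. On this plate 11 of the 15 low tiles lay between C04 and D11, a span of 20 tiles.

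The run TA75F07 to TA75F11 had 5 wells, which averaged -0.83 (replicate I) and -1.04 (replicate II), or -0.93 ± 0.148 together. Its lowest tile, TA75F09, had -1.27 and -1.08. The next wells were much higher, at -0.41 and 0.04 before the run and 0.09 and -0.38 after it. TC09C05 to TC09C08, the lowest of the 6 runs of 4 wells, had means of -1.27 and -0.97 (-1.12 ± 0.208). In it TC09C06 had -1.65 and -1.14, and the same row held another run, TC09C01 and TC09C02, whose second tile had -1.45 and -1.42. The single lowest tile of all, TA73H09, closed a run of 3 wells from TA73H07 with a mean of -1.25 in each replicate.

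Successive low tiles were a median of 10 tiles apart, with quartiles of 2 and 26. The mean step was 24.9 tiles, and by construction it lies near the 24.96 tiles of the array per low tile. Random placing would also give a median step under the mean, so these 2 values alone do not measure clustering. Steps of at most 3 tiles made up 265 of 870 (30.5%), 191 of them between next wells. The longest intervals without a low tile were 1160 tiles from TC13B11 to TD01C03, which spans TC17 to TC30, and 1018 tiles from TA36D10 to TA48A01. Outside the stretches the longest were 454 tiles from TA61H05 to TA66F07 and 383 tiles from TB23A07 to TB27A07.

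The wells beside low tiles were lower than the array as a whole although they did not pass the rule. The 1321 tiles that were next to a low tile without being low had a median of -0.36 (replicate I) and -0.32 (replicate II), against 0.03 and 0.03 for all tiles that were not low. The median of their means was -0.34 ± 0.0283 (SD of the 2 replicate medians, n = 2). Their mean lay below 0 in 1075 (81.4%), against 48.7% of all tiles that were not low. In TB, where the plates are low as a whole, the next wells had a median of -0.35, against -0.11 for its other tiles. In TA they had -0.31, against 0.12. The lowering reached a short way: with low tiles included, the median was -0.45 at 1 well after, -0.25 at 2, -0.16 at 3 and -0.14 at 6, and it was -0.14 at 12 and -0.12 at 96 wells after.

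The wells beside low tiles were lower along rows than down columns. When wells were ordered down columns (A01, B01 and on), tiles next to a low tile without being low had a median of -0.13, against -0.34 along rows, and 10.4% of low tiles stood in runs. Wells next to each other down a column are mostly 12 wells apart in the order along rows. At 12 wells after a low tile the median was -0.14, with low tiles included, and 5.31% of tiles were low. The median down columns was thus near the level at that distance.

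The wells beside a chosen tile were lower in the replicate that chose it than in the other. For tiles chosen on replicate I alone, the wells next to them had medians of -0.50 (before) and -0.49 (after) in replicate I but -0.23 and -0.24 in replicate II. For those chosen on replicate II alone, the next wells had -0.44 and -0.47 in replicate II and -0.29 and -0.30 in replicate I. The replicate that was not used was still lower beside the chosen tile than 6 wells after it, where medians were -0.15 in replicate II and -0.16 in replicate I. It was lowest at the tile itself, with -0.39 and -0.49.

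**Figure D5:**
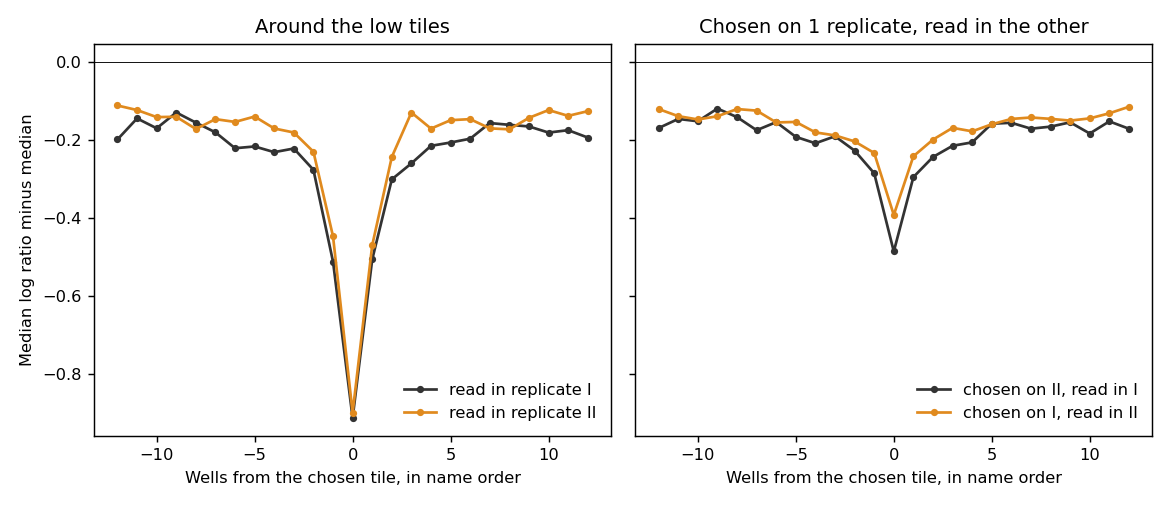
Median centred log ratio at 12 wells before to 12 wells after a tile, in the order of names, around the 871 low tiles (left) and around tiles chosen on 1 replicate and read in the other (right). Both panels dip at the tile, to -0.91 and -0.90 on the left and to -0.49 and -0.39 on the right, and level off a few wells away.

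Of 530 single low tiles with a value on both sides, 356 (67.2%) had both next wells below 0 and 22 (4.15%) had both above 0. The median single tile lay 0.40 under the lower of its next wells. In 5 of the 530 (0.943%) the tile lay at least 1 under both next wells in both replicates, and in 19 (3.58%) it did so in the mean of the replicates. A tile near the median of the single low tiles reaches this depth only where both next wells are above the median of the array. The deepest, TB63F06 (chosen after its value was seen), had -1.11 in replicate I and -0.77 in replicate II, between wells at 1.001 and 0.61 before it and 1.17 and 1.81 after it. The next, TB58G03 (also chosen after its value was seen), had -1.11 and -0.70, between wells at 0.81 and 0.50 and at 0.75 and 0.46. In both of these tiles all neighbouring values were above 0 in both replicates.

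Shares of low tiles by row and by column of the plate lay around the 4.01% of all tiles. Among single rows and columns, only the intervals of row C and column 1 left out this share. By row, low tiles made up from 3.35% (row B, 92 of 2744 tiles, interval 2.71% to 4.10%) to 5% (row C, 137 of 2740 tiles, interval 4.21% to 5.88%). These intervals do not overlap, but they treat wells as independent although low tiles often adjoined along rows, so this is not a test. Rows A, C, E and G together had 4.38% and rows B, D, F and H had 3.63%. By column they ran from 3.42% (column 11) to 5.12% (column 1, interval 4.16% to 6.24%). The rows at either end were not the same in each set. In TB they were row C (8%) and row H (3.67%), in TA row G (3.73%) and row B (1.62%), and in TC row B (5.13%) and row F (1.33%). These are the highest and lowest of 8 rows, picked after their values were seen. The median of the means was -0.02 in row C and 0.00 in row B over all sets. The cause of the differences between rows was not tested.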

How the data were processed

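The authors deposited 1 table with a score per spot and array. No source used here names its unit, and it is treated as a log ratio of unstated base and direction. Amplified DNA was labelled directly with Cy3 and Cy5, per the labels' protocols. For the scanner, background correction, normalization and genome build the entry is the same: not given in the sources used here. Of 21800 spots, 57 were empty, 18 of them tiles. Both columns of a dye swap were identical, so each swap gave 1 replicate, and whether its value holds both dye orientations is unknown. Signal over background and dye effects could not be assessed, and the number of arrays limits the precision.

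From each replicate its median over the 21743 tiles was subtracted, and no scaling followed. Wells were ordered along rows, then plates within a set. A missing well or plate broke a run. Intervals are exact binomial (Clopper-Pearson) at the 95% level, and a count of 0 was taken to allow 3. No significance test was run, because the tiles were chosen on all the values there are. The rule, the stretches and the results to describe were chosen with earlier results of these data known. Tiles named are the 8 lowest, the ends of the 3 longest runs, the 3 nearest the limit on either side, the plates with the most low tiles and the 3 lowest in the stretches. Other named tiles were chosen after their values were seen. Run finding and the rule were tested on simulated data. Software was matplotlib 3.10.9, SciPy 1.17.1, pandas 2.3.3, numpy 2.4.6 and Python 3.11.15.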

Additional observations from a re-analysis of the deposited data

How the results depend on the processing

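A result was kept if a count stayed within 1.5 times, a share within its interval or a median within 1 SD of the replicates. Of 60 alternatives for 5 results, 32 kept the result and 28 moved it further. Only the median of next wells has a sign that could reverse, and 0 alternatives reversed it. Counts and shares cannot change sign, so the turned order of TB and TA with plate medians removed is among the moved results. The 871 low tiles became 567 with plate medians removed, 1602 at a limit of -0.6 on the mean and 206 at -1, and 1548 to 1812 in single replicates. Their share in runs (39.0%) was 32.5% with centring on the mode, 34.2% with plate medians removed, 45.6% at -0.6, 15.5% at -1, 34.6% with each replicate below -0.6, 10.4% down columns, 45.7% with 1 other well allowed inside a run and 42.5% to 47.1% in single replicates. A stricter limit leaves fewer tiles that can adjoin. The share in TB (60.7%) was 38.6% with plate medians removed and 58.3% to 59.2% in single replicates. It was 68.7% with only sets TA and TB, a setting that has a smaller total and was centred on its own medians. The 13 low tiles of the TA stretches became 8 with the mode, 111 with plate medians removed, 23 at -0.6, 3 at -1, 8 with each replicate below -0.6 and 16 to 39 in single replicates. The median of next wells (-0.34) was -0.31 with the mode, -0.27 with plate medians removed, -0.27 at -0.6, -0.42 at -1, -0.13 down columns and -0.31 to -0.29 in single replicates. For the values that moved, the cause was not tested. Centring on the mode gave 606 tiles, all of them among the 871, and equal median absolute deviations shared 842 of 876. No paired analysis was possible because all samples form 1 group.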
